A study of Drosophila sechellia and Drosophila melanogaster and Drosophila simulans with 18 samples.

Results

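The vitelline membrane is the inner layer of the insect eggshell. In *Drosophila* the somatic follicle cells that surround each oocyte secrete it during the middle stages of oogenesis, and then build the chorion outside it. Its proteins are soluble when secreted and are cross-linked into an insoluble sheet as the egg matures. The 10 genes described here were given by name: *Vm26Aa*, *Vm26Ab*, *Vm32E* and *Vm34Ca*, which encode the short structural proteins of the vitelline membrane, *Vml* and *psd* (*palisade*), which encode further proteins of the same layer, *dec-1* (*defective chorion 1*) and *Femcoat*, which encode follicle cell products of the growing eggshell, and *yellow-g* and *yellow-g2*, members of the yellow protein family made in follicle cells. They were chosen with their expression on the 2 foods already known, so that their levels and differences on these foods are a description and carry no test.

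Whole adult females of *D. melanogaster* (strain 14021-0231.36), *D. simulans* (strain 14021-0251.195) and *D. sechellia* (strain 14021-0428.25) were taken at 0 to 3 days after eclosion and kept for 24 hr on instant food without or with L-DOPA at 10 mg/ml. L-DOPA is the precursor of dopamine and is abundant in the fruit on which *D. sechellia* specializes. RNA of 10 pooled flies made 1 library, with 3 libraries for each species and food and 18 in all. The comparison asks how eggshell gene expression in females of each species differed between the foods. Members were found by exact gene symbol: all 10 among the 17649 genes of the *D. melanogaster* table, 1 (*dec-1*) among the 15372 genes of the *D. simulans* table, and 0 among the 17273 genes of the *D. sechellia* table, where most genes have numbered symbols and orthologs of the members were not analysed here.

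Expression is given in FPKM (fragments per kilobase of transcript, scaled to the number of mapped reads), which corrects for gene length and so allows levels to be set beside each other between genes of 1 species. Each FPKM value was combined by the authors over the 3 libraries of a food. It therefore has no SD and no n, read counts per library were not used here, and it is not known from these values whether a difference exceeded the spread between libraries. In bulk RNA from whole flies, fewer follicle cells of the right stage and less RNA per cell cannot be told apart. The labelled sex was borne out by the yolk protein gene *Yp1*, which had 8311 FPKM on control food and 7290.04 on L-DOPA for *D. melanogaster*. The 7 male markers found in that species summed to 2.34 FPKM on control food and 2.44 on the other, with *SP* and *Mst84Dc* listed at 0 on both foods.

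In *D. melanogaster*, every member was lower on L-DOPA than on control food, from 6.03% lower (*yellow-g2*) to 60.9% lower (*Femcoat*). The median log2 change (L-DOPA over control) of the 10 members was -0.54, and their summed FPKM was 10067 on control food and 7040 on L-DOPA. The members made up 0.967% of the FPKM of all genes on control food and 0.659% on L-DOPA. Over the 10229 genes with at least 1 FPKM on both foods the median log2 change was 0.004, and 48.9% were lower on L-DOPA. A fold of at least 1.5, which is 0.585 on the log2 scale, was passed downward by 5 members (*Femcoat*, *Vm34Ca*, *Vml*, *dec-1* and *Vm32E*) and by 169 of the 10229 genes (1.65%). Upward it was passed by 0 members and by 2.85% of genes. At a smaller difference, a log2 change of -0.32 or below, 8 members and 4.31% of genes were counted. Because the members were chosen on this contrast, these counts place them among other genes and show nothing more.

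**Figure D1:**
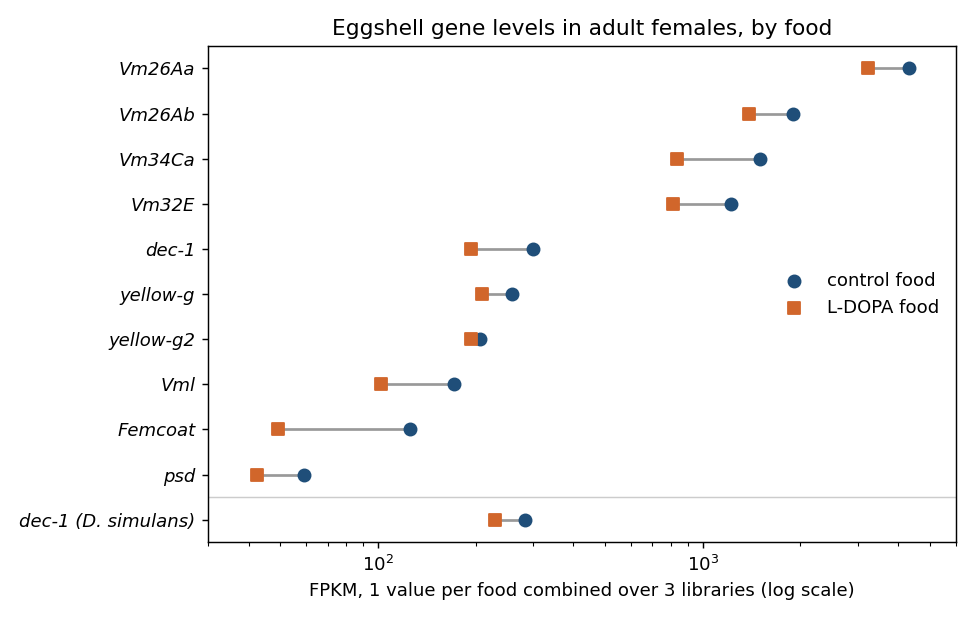
FPKM on control food (circles) and on L-DOPA food (squares) for the 10 members in *D. melanogaster* and for *dec-1* in *D. simulans*, on a log axis, each symbol being 1 value combined over 3 libraries and without an error bar. The square lies to the left of the circle in every row, with the widest gap for *Femcoat* (126 against 49.2) and the narrowest for *yellow-g2* (206 against 193).

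The members fell into abundant and moderate genes. *Vm26Aa*, *Vm26Ab*, *Vm34Ca* and *Vm32E*, the small structural proteins, ranked 33, 114, 143 and 169 by FPKM among all genes of the control flies and supplied 88.9% of the members' summed FPKM. Their share of the members' sum on L-DOPA was 88.8%, so that when summed, these 4 genes (8946 FPKM on control food, 6248 on L-DOPA) and the other 6 (1122 and 791 FPKM) were lower in nearly the same proportion.

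*Vm26Aa* encodes one of the major vitelline membrane proteins (FBgn0003979, BDGP6 chromosome 2L from 5959596 to 5960340, minus strand). It had the highest level of the members, 4323 FPKM on control food and 3225 on L-DOPA, a log2 change of -0.42. Its rank among all genes went from 33 to 65. Of the 106 other genes whose mean level was between 0.5 and 2 times its own (genes of similar FPKM from here on), 0 had a lower log2 change. Other members and other eggshell genes were kept among the genes of similar FPKM. *Vm26Ab*, which encodes the major protein also called sV23 (FBgn0003980, 2L from 5957004 to 5957639, plus strand), had 1900 FPKM on control food and 1384 on L-DOPA, a log2 change of -0.46. Only 5 of 169 genes of similar FPKM had a lower change, among them *Vm32E*, *Vm34Ca* and the chorion genes *Cp15* and *Cp19*. The level of *Vm26Aa* was 2.28 times that of *Vm26Ab* on control food and 2.33 times on L-DOPA, so this ratio was nearly the same on both foods.

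*Vm34Ca* (FBgn0003983, 2L from 13411141 to 13411631, minus strand) had 1502 FPKM on control food and 831 on L-DOPA. Its log2 change of -0.85 was the lowest of the 4 abundant genes, and 3 of 182 genes of similar FPKM had a lower one. Those 3 were the chorion genes *Cp16*, *Cp18* and *Cp19*. *Vm26Aa* was at 2.88 times the level of *Vm34Ca* on control food and at 3.88 times on L-DOPA, so the FPKM ratio of these related genes was higher on L-DOPA. *Vm32E* (FBgn0014076, 2L from 11171167 to 11171665, minus strand), whose protein also reaches the endochorion, had 1220 FPKM on control food and 809 on L-DOPA, a log2 change of -0.59 with 5 of 190 genes of similar FPKM lower. The 5 genes lower than *Vm32E* were *Vm34Ca* and the chorion genes *Cp15*, *Cp16*, *Cp18* and *Cp19*. *Vm32E* lies inside *Ca-beta*, a calcium channel subunit gene on the same strand. *Ca-beta* had 4.50 FPKM on control food and 4.25 on L-DOPA, a log2 change of -0.08. The host gene was thus at a small fraction of the level of *Vm32E*.

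*Vml* encodes a vitelline membrane protein known as a substrate of the sulfotransferase Pipe in dorsoventral patterning of the embryo (FBgn0085362, X from 2275822 to 2277781, plus strand). It had 171 FPKM on control food and 102 on L-DOPA, a log2 change of -0.74, and 10 of 1173 genes of similar FPKM had a lower change. *psd*, needed for an intact vitelline membrane (FBgn0086265, 2L from 5963087 to 5964951, minus strand), had the lowest control level of the members, 59.3 FPKM, and 42.4 FPKM on L-DOPA. Its log2 change was -0.48, with 38 of 2590 genes of similar FPKM lower. The levels of *Vm26Aa* and *psd* differed 72.9-fold on control food, while their log2 changes differed little.

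*dec-1* encodes proproteins that follicle cells secrete and that are cleaved stepwise as the eggshell is assembled (FBgn0000427, X from 7867161 to 7873222, minus strand). It had 301 FPKM on control food and 194 on L-DOPA, a log2 change of -0.63, and 5 of 679 genes of similar FPKM had a lower change. The annotation gives it 6 transcripts, and the FPKM is for the gene as a whole, so nothing is known here of the separate products. *Femcoat*, an eggshell protein of late follicle cells (FBgn0041252, X from 4241887 to 4242826, minus strand), had 126 FPKM on control food and 49.2 on L-DOPA. Its log2 change of -1.35 was the lowest of the members and the only one past 2-fold, with 5 of 1782 genes of similar FPKM lower. Its rank went from 969 to 2300. This 2-fold difference is one that 0.577% of all genes passed downward. *Vm26Aa* was at 34.4 times the level of *Femcoat* on control food and at 65.5 times on L-DOPA.

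*yellow-g* and *yellow-g2* are neighbouring genes in a region that follicle cells amplify, and their products are linked to a firm vitelline membrane. *yellow-g* (FBgn0041709, 3L from 2269881 to 2272769, minus strand) had 259 FPKM on control food and 210 on L-DOPA, a log2 change of -0.30, and 30 of 724 genes of similar FPKM were lower. *yellow-g2* (FBgn0035328, 3L from 2276550 to 2278038, plus strand) had 206 FPKM on control food and 193 on L-DOPA, a log2 change of -0.09. These were the smallest differences among the members. *yellow-g* was at 1.26 times the level of its neighbour on control food and at 1.08 times on L-DOPA. For *yellow-g2*, 191 of 851 genes of similar FPKM had a lower log2 change, so that its value lay among those of many other genes. When changes were taken relative to the median of 12 germline genes, which was itself -0.11, *yellow-g2* came out at 0.023, on the other side of 0, and 3 members in place of 5 (*Femcoat*, *Vm34Ca* and *Vml*) were lower by at least 1.5-fold, beside 1.14% of all genes taken the same way.

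**Figure D2:**
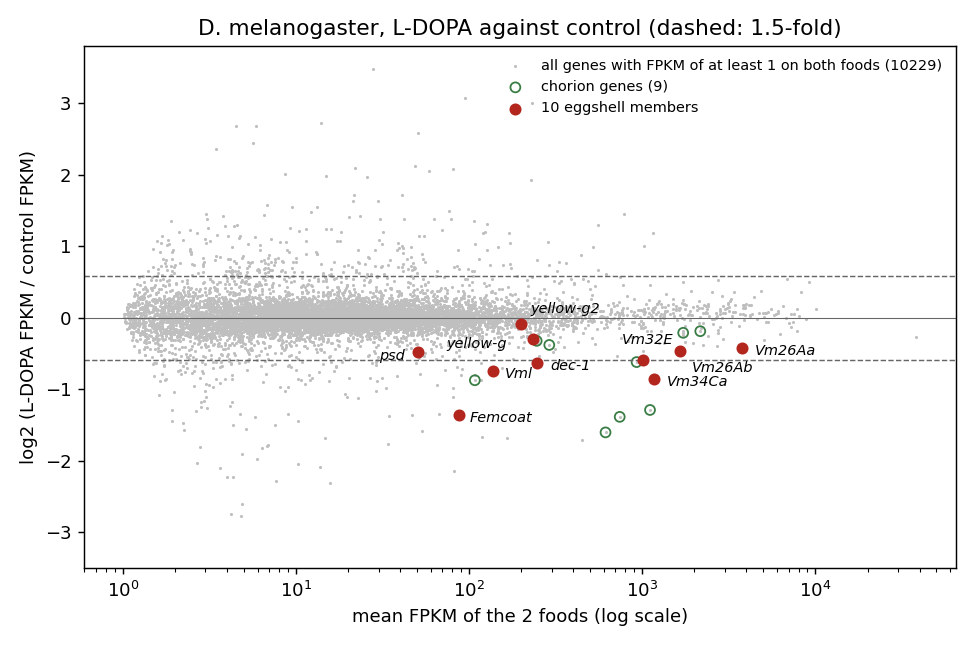
Log2 ratio of L-DOPA to control FPKM (vertical axis) against the mean FPKM of the 2 foods (log horizontal axis) in *D. melanogaster*, for 10229 genes (grey dots), 9 chorion genes (open circles) and the 10 members (filled circles), with dashed lines at 1.5-fold in each direction. All members lie below 0, from -0.09 for *yellow-g2* to -1.35 for *Femcoat*, and 5 lie below the lower dashed line.

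Position on the chromosome was not used to choose the members. On BDGP6, 5 lie on 2L, 3 on X and 2 on 3L. The 3 genes on X (*Femcoat*, *Vml* and *dec-1*) had log2 changes from -1.35 to -0.63, the 5 on 2L from -0.85 to -0.42, and the 2 on 3L of -0.30 and -0.09. The 3 ranges on X, 2L and 3L rest on 3, 5 and 2 genes, and the genes on 3L and part of those on 2L are neighbours. *Vm26Ab*, *Vm26Aa* and *psd* form 1 cluster with *Vm26Ac*, another vitelline membrane gene, which spans 7.95 kb (2L from 5957004 to 5964951). Within it the levels on control food covered a 72.9-fold range, while the log2 changes of the 4 genes lay between -0.48 and -0.42. *Vm26Ac* had 97.7 FPKM on control food and 69.9 on L-DOPA, and *Vm26Ab* was at 19.4 and 19.8 times its level. Within the cluster the FPKM ratios were thus close on the 2 foods.

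**Figure D3:**
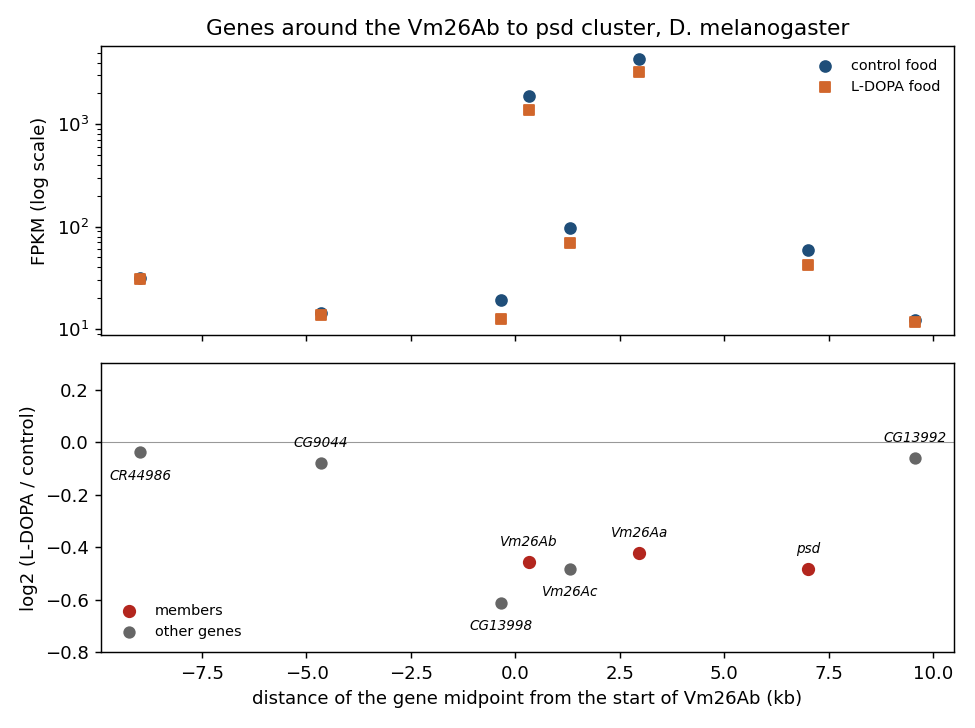
FPKM on control food (circles) and L-DOPA food (squares) on a log axis (top) and log2 ratio of L-DOPA to control (bottom) for genes with at least 1 FPKM on both foods, against the distance of their midpoint from the start of *Vm26Ab* in kb. The 4 vitelline membrane genes of the cluster lie between -0.48 and -0.42 in the bottom panel, *CG13998* lies lower at -0.61, and *CR44986*, *CG9044* and *CG13992* to the sides lie between -0.08 and -0.04.

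Genes that are no members but lie within 10 kb of one were looked at after the members' values were seen. Of 42 such genes, 23 had at least 1 FPKM on both foods, and 5 of these were lower on L-DOPA by at least 1.5-fold and 0 were higher by it, beside 1.65% and 2.85% of all genes. The 5 are named here for passing that fold. *CG13998* starts on the opposite strand 185 bases from *Vm26Ab* and had 19.3 FPKM on control food and 12.6 on L-DOPA (log2 change -0.61). *CG16956*, 2152 bases from *Vm34Ca*, had 5.89 and 2.61 FPKM (-1.17). *Muc4B*, named as a mucin, lies 1269 bases from *Femcoat* and had 22.5 and 14.6 FPKM (-0.62), and *CG43135*, 5551 bases from *Femcoat*, had 5.87 and 2.50 FPKM (-1.23). *Ir7c*, which encodes a chemosensory receptor of the ionotropic class, starts 1172 bases from *dec-1* on the opposite strand and had 11.6 and 7.23 FPKM (-0.68). All 5 were below the level of the member beside them, whose part in these values was not tested. The other 18 did not pass it. Among them, *CG7110*, 94 bases from *Vm34Ca*, had 1.35 FPKM on control food and 1.39 on L-DOPA (log2 change 0.04). *CG2865*, 250 bases from *Vml*, had 12.8 FPKM on each food (0.004), and *CG43134* near *Femcoat* had 1360 and 1281 FPKM (-0.09).

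Gene structure was also not used in the choice. *Vm26Aa*, *Vm26Ab*, *Vm32E*, *Vm34Ca* and *Vml* have 1 exon in every annotated transcript, as have 10.3% of the 9428 protein-coding genes with at least 1 FPKM on both foods. The exonic length was from 491 bases (*Vm34Ca*) to 5748 bases (*dec-1*). The predicted proteins of *Vm32E*, *Vm34Ca*, *Vm26Aa* and *Vm26Ab* have 116, 119, 141 and 168 residues, against 578 for *Vml* and 381 for *psd*. The 5 genes without introns had log2 changes from -0.85 to -0.42 and the 5 with an intron in at least 1 transcript from -1.35 to -0.09, so the ranges overlapped. Reads of *yellow-g* could be shared with *CG32302*, which overlaps its end and had 0.531 FPKM on control food and 0.661 on L-DOPA, and those of *dec-1* with the antisense *CR43615*, which had 0.291 and 0.0395 FPKM. Both were at under 1 FPKM on each food.

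Other genes of the eggshell were taken from lists, which were also written with earlier results of these data known. Of 9 chorion genes, which encode the outer eggshell, 5 were lower on L-DOPA by at least 1.5-fold and 0 were higher by it, and the median log2 change was -0.62. They ran from *Cp18* at -1.60, below any member, to *Cp38* at -0.19. Of 14 other genes listed for the eggshell, 12 were found, of which 5 were lower by that fold and 0 were higher by it, with a median of -0.43. Among them, *Fcp3C*, a follicle cell protein, had 107 FPKM on control food and 54.2 on L-DOPA (log2 change -0.99), *CG13083* had 86.2 and 45.1 FPKM (-0.93), and *CG13992*, which adjoins *psd*, had 12.3 and 11.8 FPKM (-0.06). Differences of this size were not confined to these lists. Of 1907 genes with control FPKM at least that of *psd*, 32 were lower on L-DOPA by at least 1.5-fold. Of those, 19 were neither members nor in the chorion or other eggshell list.

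Genes that assemble, pattern or cross-link the eggshell were listed separately. Of 12 such genes, 11 were found and 10 had at least 1 FPKM on both foods, and 0 passed 1.5-fold in either direction (median log2 change -0.05, with 6 lower on L-DOPA and 4 higher). Of the members, only *yellow-g2* (-0.09) lay within the range of these genes, and all others, at -0.30 or below, lay under it. The difference between the lists was not tested. The lowest was *ndl*, the protease Nudel that acts in the vitelline membrane and in dorsoventral patterning, with 7.06 FPKM on control food and 6.04 on L-DOPA (log2 change -0.22). The highest was *pip*, which encodes the sulfotransferase Pipe, with 2.01 and 2.39 FPKM (0.25). *Pxt*, a peroxidase of the ovary, had 98.3 and 93.1 FPKM (-0.08). *Pxd*, an eggshell peroxidase, had 0.620 and 1.03 FPKM and was left out of the count for its low level.

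**Figure D4:**
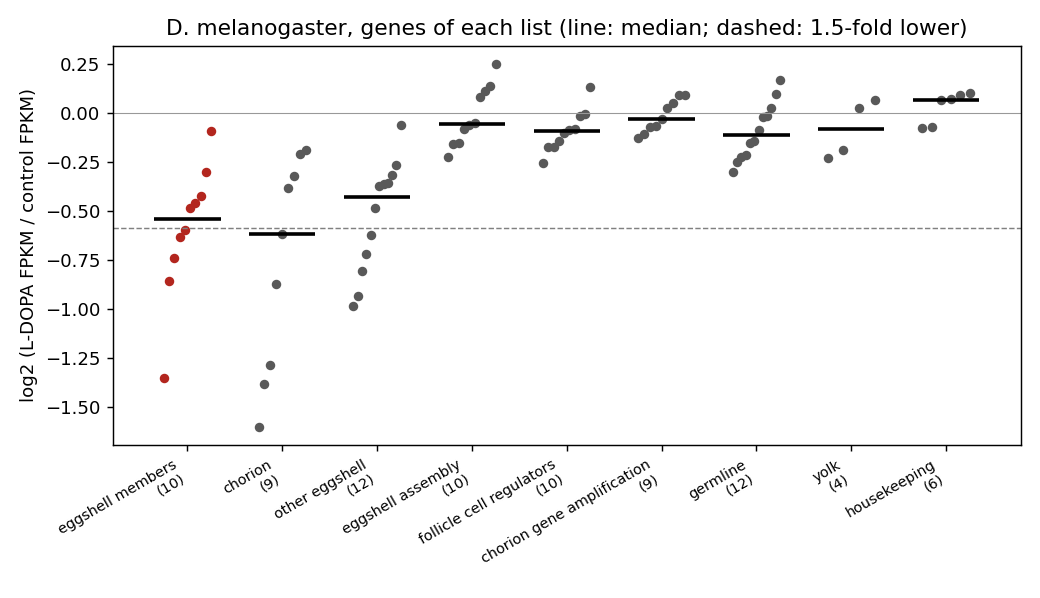
Log2 ratio of L-DOPA to control FPKM in *D. melanogaster* for each gene (points) of 9 lists, with the number of genes with at least 1 FPKM on both foods in brackets, the median as a line, and 1.5-fold lower as a dashed line. Medians were -0.54 for the members, -0.62 for chorion genes and -0.43 for other eggshell genes, and lay between -0.11 and 0.07 for the remaining lists.

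Genes that act in the cells that make or surround the eggshell, and genes of other tissues, were listed to show what else moved with the members. The 12 follicle cell regulators summed to 157 FPKM on control food and 153 on L-DOPA. Of these sums *bun* alone gave 83.9 and 83.8, so they mostly follow that gene. Of the 10 regulators above the minimum, 0 passed 1.5-fold in either direction, with a median log2 change of -0.09. They ran from *slbo*, a factor of migrating follicle cells, at -0.25 to *Fas3*, a follicle cell adhesion protein, at 0.13. These and *tj* (-0.10) were the regulators planned as follicle cell markers. Of them, *slbo* had only 1.46 FPKM on control food and 1.23 on L-DOPA, just above the minimum of 1 FPKM. How much RNA of any regulator came from follicle cells is not known in whole flies, so the sums do not measure follicle cell content. The 9 genes that act in chorion gene amplification also had 0 past that fold (median -0.03). The 12 germline genes summed to 475 FPKM on control food and 432 FPKM on the other, with 9 lower, 3 higher, 0 past 1.5-fold and a median of -0.11, from *otu* at -0.30 to *bam* at 0.17. The 4 yolk genes, made in fat body and follicle cells or, as *yl*, in the oocyte, summed to 19404 FPKM on control food and 17478 on L-DOPA (median -0.08). The spermathecal genes *Send1* and *Send2* were higher on L-DOPA, with log2 changes of 0.58 and 0.52 and summed to 160 FPKM without and 238 FPKM with it. The 6 housekeeping genes summed to 17209 and 17338 FPKM (median 0.07), and the 7 muscle and fat body genes to 3034 and 3424 FPKM (median 0.16), the latter ranging from *apolpp* at -0.05 to *Fbp1* at 1.55. The part of these other cell types in the members' values was not tested.

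In *D. simulans*, *dec-1* (FBgn0012868, ASM75419v3 chromosome X from 7315446 to 7321312) was the member found. Its FPKM was 284 on control food and 230.1 on L-DOPA, which is 19.0% lower and a log2 change of -0.30. This did not reach 1.5-fold, which 2.15% of the 9249 genes with at least 1 FPKM on both foods passed downward. The median of these genes was itself below 0, at -0.08, with 65.2% of them lower on L-DOPA, and 42 of 592 genes of similar FPKM had a lower change than *dec-1*. In *D. melanogaster* the same gene was 35.6% lower, from a similar control level of 301 FPKM, though the tables of the species were normalized separately. Whether the species differed was not tested. The study's list of libraries gives fewer mapped reads for each L-DOPA library of *D. simulans* than for each of its control libraries, so depth and food cannot be told apart there. In *D. melanogaster* the libraries with the most and the fewest mapped reads were both on L-DOPA. The part of depth in its values was not tested. Beside *dec-1* in *D. simulans*, the chorion gene *Cp16* had a log2 change of -0.09 and the yolk protein gene *Yp2* of 0.48. The 4 germline genes found in this table had a median of -0.42, so *dec-1* lay above that median. In *D. melanogaster* it lay below the median of the 12 germline genes (-0.11).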

How the data were processed

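Per the study's methods, the authors checked reads with FastQC, mapped single-end reads of mRNA-selected libraries with Bowtie2 under default settings to BDGP6, ASM75419v3 or dsec_caf1, and ran Cuffdiff with Ensembl annotation, geometric normalization and length correction. The labels name BDGP6 for the samples of all 3 species, and the builds of the other 2 are given here as in the methods. Versions of these tools are not given in the sources used here, nor is use of strand. The deposited FPKM values, 1 per gene and food, combine 3 libraries, so library spread and depth are not in them. The tables also hold the authors' fold changes, test scores, p-values and q-values, which were not used.

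Log2 changes were computed from FPKM (L-DOPA divided by control) with no pseudocount added, using Python 3.11.15, numpy 2.4.6 and pandas 2.3.3. All genes with at least 1 FPKM on both foods served as background, and 1.5-fold as the fold counted. No test was run, since no replicate values were at hand. *D. melanogaster* coordinates and gene structure are from Ensembl release 115, matched by gene identifier (17512 of 17649), and by name for *Ca-beta*. Its coordinates count from 1. The counting past 1.5-fold was checked on simulated data with little scatter, in which some genes were set 2-fold lower or higher. That checks the arithmetic only and shows nothing about the spread in these data.

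The members and gene lists were chosen with earlier results of these data known. Named genes are the members, those of the 3 eggshell lists and, of other lists, the lowest and highest with at least 1 FPKM on both foods. Neighbours within 10 kb were named for passing 1.5-fold, or as examples of those that did not. These neighbours, *yl*, the regulator *bun*, and genes overlapping a member were picked after their values were seen. *Yp1*, *Yp2*, *SP*, *Mst84Dc* and *tj* were planned as markers. Which planned markers to name was decided after their values were seen. Of the male list, only *roX1* passed the FPKM minimum (log2 change 0.09).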

Additional observations from a re-analysis of the deposited data

How the results depend on the processing

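With other folds, 8 members (log2 change of -0.32 or below) or 1 (2-fold) were lower on L-DOPA in *D. melanogaster*, against 5 as reported. Of all genes, 4.31% and 0.577% passed these 2 folds downward. Relative to the germline list, 3 members were lower by at least 1.5-fold. The median log2 change of the members was -0.43 relative to the germline list, while adding 1 to both values, centring on the upper quartile or the median gene, leaving out the 4 abundant *Vm* genes and leaving out *Femcoat* (the last chosen after the data were seen) each moved it by less than 0.1. That amount is a chosen limit, since the spread between libraries is not known. The log2 change of *yellow-g2* was 0.023 relative to the germline list, whose median was -0.11. That setting shifts every member by the same amount, and the 9 other members kept their direction. The share of all genes lower by at least 1.5-fold was 7.20% of genes above 0 FPKM, 0.869% with at least 10 FPKM, and 0.976% of protein-coding genes (chosen after the data were seen), against 1.65%. Relative to the germline list, also chosen afterwards, it was 1.14%. A window of 4-fold, or none, moved no member's rank by as much as 3 percentage points. No paired analysis was possible because each food has 1 combined value per gene, and leaving out a replicate could not be run for the same reason. Motif and protein searches were planned and not run.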
